A study of Mus musculus with 54 samples.

Results

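The comparison described here was that of CTCF HET with WT in whole testis: 6 of the 54 samples of the series, 3 libraries of each genotype, taken by the genotype in their labels. CTCF HET mice carried 1 working and 1 knockout allele of Ctcf, and WT mice carried 2 working alleles. Male C57BL/6 mice were 3 months old, and each library came from a separate preparation of germ cell-enriched testis, pooled from 4 mice, so that differences among single mice were averaged out. Ribosomal RNA was depleted, and reads were counted per gene symbol. In such a bulk sample fewer cells of a type and less RNA per cell cannot be told apart.

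CTCF is a zinc finger protein that binds a long DNA motif at many sites in the genome. It halts the cohesin ring as DNA is drawn through it, which sets the ends of chromatin loops, and it can separate an enhancer from a promoter. Its paralog BORIS, encoded by Ctcfl, binds a subset of the same sites and is made in male germ cells. Mice without any Ctcf die as embryos.

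The 6 libraries held 10460642 to 42055813 counts, and 20764 to 21502 genes had at least 1 count. Replicate 1 was the deepest library in each genotype. Germ cell markers dominated: the summed level of 20 elongating spermatid genes was 34550 to 49377 CPM (counts scaled to a TMM-adjusted library total of 1000000), against 364 to 607 CPM for 16 Sertoli cell genes and 13.3 to 70.1 CPM for 10 genes of the epididymis. Genome-wide, libraries of the same genotype correlated at 0.960 to 0.986 (Pearson r of log2 levels across 16097 genes) and libraries of different genotypes at 0.960 to 0.987.

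Ctcf itself was lower in every CTCF HET library. Its level was 45.1, 40.9 and 42.1 CPM in WT replicates 1 to 3 and 27.7, 30.4 and 23.0 CPM in CTCF HET replicates 1 to 3, from 226 to 1594 counts per library. The groups did not overlap, and the mean of CTCF HET (27.0 ± 3.75 CPM, SD, n = 3) was 0.633 of the mean of WT (42.7 ± 2.16 CPM, SD, n = 3). The fitted log2 fold change was -0.66 ± 0.18 (SE), with a 95% interval from -1.08 to -0.24. By edgeR's quasi-likelihood test it had an unadjusted p of 0.00603 and an adjusted p of 1.00 over all 16097 genes. With the replicate number as a block, which compares libraries of the same number, the log2 fold change was -0.66 (95% interval -0.97 to -0.36) and the adjusted p was 0.054. A level of exactly 50% of WT, a log2 fold change of -1, lay inside the first interval and outside the second. Counts were taken over the whole gene, so that transcripts of the knockout allele that keep part of its sequence would be counted with those of the working allele.

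Ctcfl, the gene for BORIS, was near the limit of detection, with 8 to 18 counts in each of the 6 libraries. Its level was 0.509, 0.597 and 0.712 CPM in WT and 0.331, 0.489 and 0.813 CPM in CTCF HET. The groups overlapped, and the gene was below the filter on low counts and was not tested.

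Rltpr was the only gene called by the thresholds of the study, an adjusted p < 0.001 and a fold change > 2, among 16097 genes tested, or 0.00621% of them. The gene, today named Carmil2, encodes a leucine-rich repeat protein that regulates actin capping and is best known for its part in T cell activation. Its level was 1.64, 1.13 and 1.60 CPM in WT replicates 1 to 3 and 104, 68.2 and 68.7 CPM in CTCF HET replicates 1 to 3. Thus 17 to 58 counts per WT library stood against 676 to 2516 per CTCF HET library, and the lowest CTCF HET library was far above the highest WT library. The fold change was 54.5 (log2 fold change 5.77 ± 0.28, 95% interval 5.13 to 6.41), with an adjusted p of 0.000151 by edgeR. With the replicate block it was 56.4 (log2 5.82 ± 0.19, adjusted p = 3.02e-15). Leaving out 1 library at a time kept the log2 fold change between 5.57 and 5.86. The adjusted p by edgeR rose above 0.001 without WT replicate 2 (0.00315), without WT replicate 3 (0.00258) and without CTCF HET replicate 2 (0.00381). No gene was called in those fits. The study, which used DESeq2, reports no differentially expressed gene for CTCF HET at these thresholds. DESeq2 on the counts used here did call Rltpr, and the cause of this difference was not tested.

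**Figure D1:**
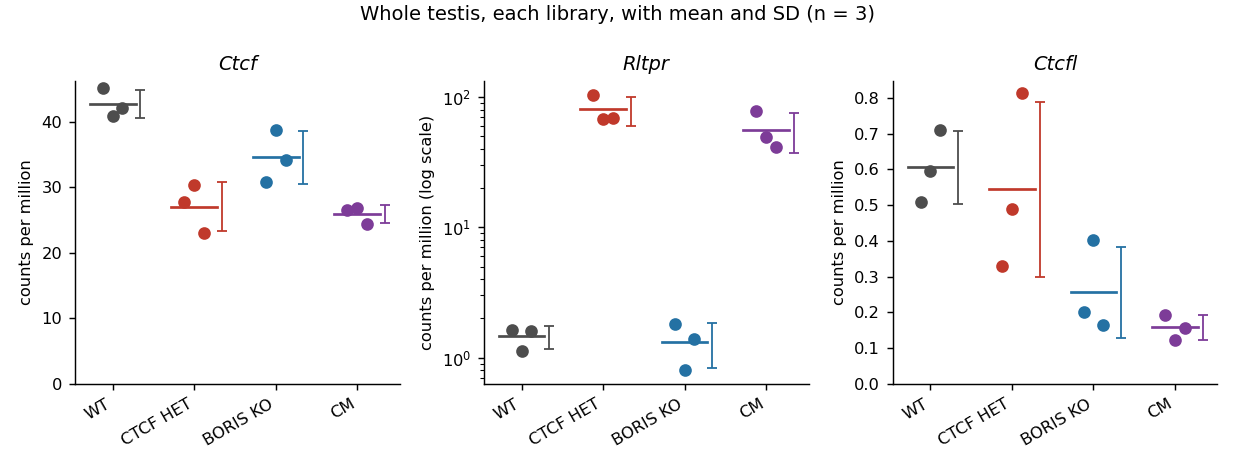
Levels of Ctcf, Rltpr and Ctcfl in CPM (vertical axis, logarithmic for Rltpr) in each whole testis library of 4 genotypes (horizontal axis); points are libraries, lines are means and bars are SD with n = 3. Ctcf was lower and Rltpr higher in all 3 CTCF HET libraries than in any WT library, and the CM libraries, which carry the same Ctcf allele, had 41.4 to 77.8 CPM of Rltpr.

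The same pattern was seen in other libraries that carry the knockout Ctcf allele. In round spermatids, the haploid cells after meiosis, Rltpr was at 0.965, 1.15 and 0.606 CPM in WT and 67.8, 79.8 and 62.6 CPM in CTCF HET (log2 fold change 6.25 ± 0.23, adjusted p = 6.70e-06). In spermatocytes, the cells in meiosis, it was at 1.61 and 1.60 CPM in WT and 65.1, 37.5 and 55.7 CPM in CTCF HET (log2 5.03 ± 0.29, adjusted p = 0.00176). Among the whole testis libraries of the other genotypes, BORIS KO, in which Ctcfl is deleted and both Ctcf alleles are intact, had 0.803 to 1.80 CPM, and CM, which combines the Ctcf heterozygosity with the loss of BORIS, had 41.4 to 77.8 CPM. In every library named here, Rltpr was at 0.606 to 1.80 CPM with 2 working Ctcf alleles and at 37.5 to 104 CPM with 1.

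Ctcf did not follow the allele as closely in the purified cells. In round spermatids it was at 49.7, 31.2 and 29.6 CPM in WT and 34.1, 22.4 and 25.4 CPM in CTCF HET, with overlapping groups (log2 fold change -0.44, 95% interval -0.93 to 0.04, adjusted p = 0.163 by edgeR). In spermatocytes it was at 33.8 and 32.0 CPM in WT and 42.8, 50.5 and 31.3 CPM in CTCF HET, again overlapping (log2 0.34, 95% interval -0.17 to 0.84, adjusted p = 0.366). The CTCF HET spermatocyte libraries had counts for 12018 to 13406 genes, against 17631 and 17683 in the WT libraries, and the part of this in the spermatocyte values was not tested. In whole testis Ctcf was at 30.7 to 38.8 CPM in BORIS KO and 24.3 to 26.9 CPM in CM, whose values overlapped with those of CTCF HET.

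Rltpr is the next gene of the count table downstream of Ctcf. In the mouse build mm9, Ctcf spans chr8:108160468-108206822 on the plus strand and Rltpr chr8:108210174-108222078 on the same strand, with 3351 bases between them. ChIP-seq of WT testis found a CTCF peak across the start of Rltpr (chr8:108209496-108210276, height 2726, above 91.2% of the 34625 CTCF peaks), whose summit was 358 bases before the annotated start. In CM a peak was also called at this place (height 191, in a separate list that was not scaled to WT), while no BORIS, RNA polymerase II (Pol2) or H3K4me3 peak lay over the start in the WT or CM lists. The start of Ctcf, by contrast, carried CTCF, Pol2 and H3K4me3 peaks in WT, with 2 BORIS peaks beside it. Further CTCF peaks lay inside Rltpr at 7962 and 8416 bases after its start (heights 1193 and 326), and neither overlapped a peak in CM. Occupancy in CTCF HET testis was not analysed here.

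The sequences at the summits of the CTCF peak over the Rltpr start and of the nearest strong peak before Ctcf are shown, since these peaks lie on either side of Ctcf and the Rltpr peak covers the start of the gene that was called. Each is 300 bases of the mm9 plus strand, 5′ to 3′, and capitals mark matches on either strand to CCAGNGG, a part of the CTCF core motif.
Rltpr start, chr8:108209667-108209966: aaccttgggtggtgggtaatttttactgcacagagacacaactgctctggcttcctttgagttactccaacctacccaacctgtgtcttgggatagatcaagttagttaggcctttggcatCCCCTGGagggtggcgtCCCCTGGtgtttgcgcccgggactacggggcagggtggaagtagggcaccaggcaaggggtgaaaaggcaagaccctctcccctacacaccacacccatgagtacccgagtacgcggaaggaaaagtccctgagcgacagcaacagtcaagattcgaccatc
Before Ctcf, chr8:108146331-108146630: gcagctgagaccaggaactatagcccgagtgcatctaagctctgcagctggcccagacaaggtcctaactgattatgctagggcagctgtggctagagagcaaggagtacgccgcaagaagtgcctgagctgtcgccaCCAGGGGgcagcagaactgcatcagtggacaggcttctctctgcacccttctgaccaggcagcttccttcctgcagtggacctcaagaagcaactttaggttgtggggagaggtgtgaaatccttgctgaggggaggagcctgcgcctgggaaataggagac
The window at the Rltpr start held 2 matches, both on the minus strand, and the window before Ctcf held 1, on the plus strand. The same letters occurred in 35.2% of all 34625 windows at WT CTCF summits and in 27.0% of 22035 windows of this length at the starts of protein-coding genes, so that a match is a description of these letters and not of a bound site. Both windows lie in CTCF peaks that were also called in CM.

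The change in Rltpr was not matched in size by the genes around it in whole testis. Of 58 genes whose annotated start lies within 500 kb of that of Ctcf, 51 were in the count table and 42 were tested. Apart from Ctcf and Rltpr, the 40 others had log2 fold changes from -0.51 (Dpep3) to 1.29 (Lcat), with a median of 0.13. The 95% interval lay within a 2-fold change in either direction for 33 of the 40. Of the genes beside these, Acd, a telomere shelterin gene, had a log2 fold change of -0.23, Pard6a, a cell polarity gene, of -0.04, and Fam65a, the tested gene next before Ctcf, of 0.21.

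At an unadjusted p under 0.05, 1 of the 40 was higher and 1 was lower, against 1.47% of all genes tested that were higher and 1.16% that were lower at this threshold. The higher gene was Slc12a4, a potassium-chloride cotransporter (8.06, 4.24 and 5.69 CPM in WT; 12.3, 6.42 and 11.5 CPM in CTCF HET; log2 fold change 0.74 ± 0.32). The lower gene was Dpep3, a dipeptidase of testis (539, 409 and 380.0 CPM in WT; 383, 284 and 268 CPM in CTCF HET). The groups overlapped for Dpep3, yet every CTCF HET library was below the WT library of its own number, with log2 ratios of -0.49, -0.52 and -0.50. Under the replicate block its adjusted p was 0.0361. Lcat, the neighbour with the highest log2 fold change, was at 0.178 to 0.962 CPM in WT and 0.611 to 1.82 CPM in CTCF HET, and had an unadjusted p of 0.069. With the block, Lcat and Slc12a4 were higher and Dpep3 lower at an unadjusted p under 0.05, beside 5.53% and 6.78% of all genes. At an adjusted p under 0.05, 6 of 36 neighbours were higher and 1 lower in round spermatids, beside 9.51% and 12.8% of all genes. In spermatocytes 1 of 37 was higher and 8 lower, beside 6.77% and 8.76%. Neighbour log2 fold changes ran from -0.70 to 1.12 in round spermatids and from -8.45 to 0.58 in spermatocytes. The lowest in spermatocytes was Nutf2, with a 95% interval from -15.1 to -1.82 and an adjusted p of 0.0968 by edgeR. Among those lower at the threshold there, Plekhg4 was at -2.09 and Elmo3 at -1.75.

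**Figure D2:**
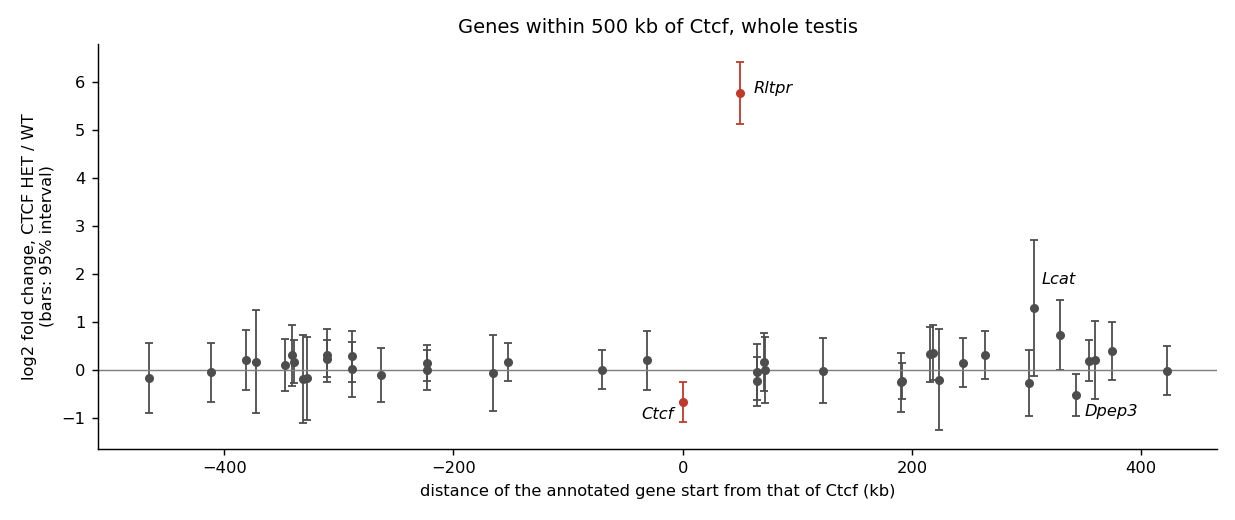
Log2 fold change of CTCF HET over WT in whole testis (vertical axis, with 95% intervals) for the 42 tested genes within 500 kb of Ctcf, by the distance of their start from that of Ctcf in kb (horizontal axis). Rltpr stood at 5.77, and the 40 genes other than Ctcf and Rltpr ran from -0.51 to 1.29.

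Beyond Rltpr, the genome-wide comparison passed few genes. At an unadjusted p under 0.05, 237 genes were higher and 187 lower in CTCF HET, 424 of 16097 in all, and 1 had an adjusted p under 0.05. DESeq2 also called 1 gene, with 385 at an unadjusted p under 0.05 and 3 at an adjusted p under 0.05 (Rltpr, Gm3409 and Sardh). The median log2 fold change over all genes was 0.01. The precision of the test bounded larger changes for most genes: the 95% interval lay within a 2-fold change for 69.4% of the genes tested, for 94.2% of the 2384 genes at 100 CPM or more, and for 46.0% of the 7248 genes under 10 CPM. In whole testis 651 genes were higher in all 3 CTCF HET libraries than in any WT library and 621 were lower in all 3, together 7.90% of the genes tested.

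A comparison with the replicate number as a block, called paired here, passed more genes. Libraries of WT and CTCF HET with the same number deviated from their group means together, with correlations of 0.262 to 0.700 across genes, against -0.572 to 0.225 for libraries of different numbers. The pair of replicates 1, the deepest libraries, stood at 0.700, that of replicates 3 at 0.510 and that of replicates 2 at 0.262. The last was near WT replicate 3 with CTCF HET replicate 2 (0.225) and WT replicate 2 with CTCF HET replicate 3 (0.168). Pairing of numbers 2 and 3 is thus less certain. With the number as a block, 2 genes were called (0.0124% of those tested), Rltpr and Gm3409, and 42 genes (0.261%) had an adjusted p under 0.05, of which 29 were lower and 13 higher in CTCF HET. At an unadjusted p under 0.05, 890 genes (5.53%) were higher and 1092 (6.78%) lower. Every one of the 42 genes had the same sign in all 3 pairs, which the test itself favours. They were named after their values were seen.

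The count of 42 depended on which pairs were kept. Without pair 1, 27 genes had an adjusted p under 0.05, without pair 2 18 genes, and without pair 3 188 genes. Of the 42 genes, 12, 8 and 37 passed in these fits. Rltpr, Gm3409, Dhrs4 and Sardh passed in all of them.

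**Figure D3:**
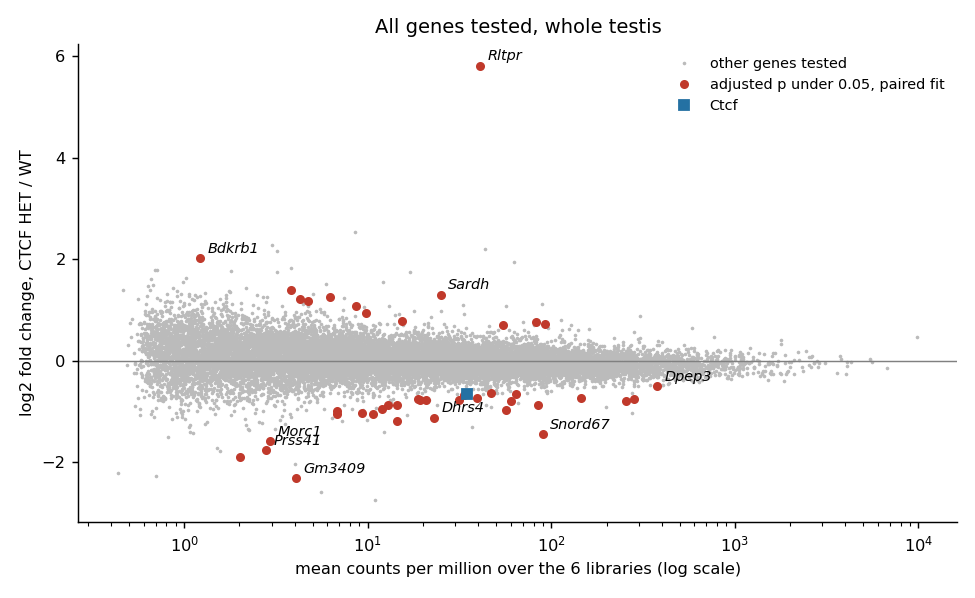
Log2 fold change of CTCF HET over WT with the replicate block (vertical axis) against the mean level over the 6 libraries in CPM (horizontal axis, logarithmic) for 16097 genes. The 42 genes with an adjusted p under 0.05 are red, of which 29 lie below 0 and 13 above, and Ctcf is the blue square.

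Among the 29 lower genes were several that act in germ cells or are best known from testis. Dhrs4, a reductase of retinoids, was at 24.7, 30.2 and 39.7 CPM in WT and 11.9, 13.7 and 17.4 CPM in CTCF HET. The groups did not overlap, and its log2 fold change was -1.13 ± 0.15 (adjusted p = 0.00109 with the block). Morc1, an ATPase that silences transposons in the male germ line, was at 3.82, 4.38 and 5.25 CPM in WT and 1.65, 1.59 and 1.02 CPM in CTCF HET (log2 -1.59 ± 0.29, adjusted p = 0.0229). Prss41, a serine protease of testis, was at 5.46, 3.18 and 4.18 CPM in WT and 1.53, 0.733 and 1.63 CPM in CTCF HET (log2 -1.77 ± 0.29, adjusted p = 0.00991).

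Gsdma, a gasdermin that can form membrane pores, was at 21.6, 26.3 and 12.5 CPM in WT and 8.56, 8.74 and 8.64 CPM in CTCF HET, so that WT replicate 3 lay nearest to CTCF HET (log2 -1.19 ± 0.20, adjusted p = 0.0128). Col2a1, the gene for type II collagen, was at 88.5, 68.4 and 76.9 CPM in WT and 59.7, 37.6 and 51.7 CPM in CTCF HET (log2 -0.67 ± 0.13, adjusted p = 0.0320). The uncharacterised gene 1700016P04Rik was at 41.3, 75.7 and 106 CPM in WT and 17.8, 48.2 and 73.1 CPM in CTCF HET. Its groups overlapped, and it was lower within each pair (log2 -0.80 ± 0.15, adjusted p = 0.0229). Gm3409 had the largest decrease, from 11.1, 4.44 and 4.72 CPM in WT to 2.03, 0.611 and 1.52 CPM in CTCF HET (log2 -2.33 ± 0.28, adjusted p = 0.000236). It is a predicted gene whose reads may be shared with near-identical copies, as may those of Adam34 and Pcdha2, and its value is uncertain for that reason.

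The 13 higher genes were of mixed function. Sardh, the mitochondrial sarcosine dehydrogenase, was at 18.0, 15.4 and 9.88 CPM in WT and 38.4, 28.7 and 39.5 CPM in CTCF HET (log2 1.30 ± 0.19, adjusted p = 0.0109). Slc4a3, an anion exchanger, was at 4.89, 3.05 and 3.11 CPM in WT and 8.97, 9.53 and 7.82 CPM in CTCF HET (log2 1.25 ± 0.22, adjusted p = 0.0193). H2afx, the histone variant that is phosphorylated around DNA breaks and over the sex chromosomes in meiosis, was at 38.9, 33.3 and 51.2 CPM in WT and 63.8, 51.3 and 86.9 CPM in CTCF HET (log2 0.70 ± 0.13, adjusted p = 0.0277). Myh13, a muscle myosin heavy chain, was at 3.45, 1.72 and 1.16 CPM in WT and 5.95, 5.13 and 5.39 CPM in CTCF HET (log2 1.39 ± 0.28, adjusted p = 0.0320). In each of these 4 genes the lowest CTCF HET library was above the highest WT library.

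Round spermatids gave a comparison of the same genotypes in other libraries. Of the 42 genes, 33 were tested there, 32 had the same direction as in whole testis, and 18 had an adjusted p under 0.05, all 18 in that direction. The exception in direction was Gm3409, the gene with the largest decrease in whole testis, which had a log2 fold change of 0.22 in round spermatids (adjusted p = 0.692). Over all 15238 genes tested in round spermatids, 9.51% were higher and 12.8% lower at this threshold. Stage markers moved there too. Of 20 elongating spermatid genes 13 were lower and 0 higher, and of 22 round spermatid genes 12 were lower and 1 higher. Their median log2 fold changes were -0.58 and -0.36, and the part of this in the direction of the 42 genes was not tested. Among the 18 were Rltpr, H2afx and Myh13, which were higher, and Dhrs4, Prss41, Gsdma, 1700016P04Rik, 1700021F05Rik, Morc1, Pcdha2, Rtkn2, 4933412E12Rik, Col2a1, Rpl22l1, Adam34 and Gm17359, which were lower. The sizes were close to those in whole testis for some genes and not for others. Morc1 fell by 1.59 on the log2 scale in whole testis and by 1.63 in round spermatids, Prss41 by 1.77 and 1.78, and 4933412E12Rik by 0.79 in each. In the same order, 1700016P04Rik had log2 fold changes of -0.80 and -1.87, and 1700021F05Rik of -0.95 and -1.83. Grhl2, not among the 18, was at -1.05 and -0.03. Leaving out 1 round spermatid library at a time, 10 to 24 of these genes passed in the same direction and 0 in the opposite one, while 5.88 to 42.3% of all genes passed. The highest count came without WT replicate 1 and the lowest without CTCF HET replicate 1.

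Spermatocytes gave a different picture. There 31 of the 42 genes were tested, 16 had the same direction as in whole testis and 15 the opposite one. At an adjusted p under 0.05, 6 passed in the same direction (Rltpr, Dhrs4, 4933412E12Rik, Myh13, Col2a1 and Dpep3) and 2 in the opposite one (H2afx and Dus3l), beside 6.77% of 13648 genes that were higher and 8.76% that were lower. These are the libraries in which CTCF HET had counts for fewer genes. In them 7 of 19 elongating spermatid genes and 7 of 21 round spermatid genes were higher at that threshold and 0 lower. Their median log2 fold changes were 1.17 and 0.80. Without CTCF HET replicate 2, 1 of the 42 passed (Rltpr), and so did 0.00730% of all 13691 genes tested in that fit, Rltpr alone.

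The knockout Ctcf allele was also set against the intact gene on the BORIS KO background, CM against BORIS KO, in whole testis libraries that the first comparison did not use. This comparison was added after the 42 genes were seen. Here too the block on the replicate number was used. All 42 genes were tested, and 31 had the same direction as in CTCF HET. At an adjusted p under 0.05, 15 passed in the same direction and 0 in the opposite one, whereas 3.99% of 16655 genes were higher and 3.36% lower. The 15 genes were Rltpr, Sardh, Slc4a3, Pld3, Slc22a17 and Nfic, higher, and Dhrs4, Prss41, Gsdma, 1700016P04Rik, Morc1, Pcdha2, 4930511A02Rik, Col2a1 and Dpep3, lower. Without the block, 1 of them passed at an adjusted p under 0.05, and 20 had an unadjusted p under 0.05 in the same direction and 1 in the opposite one, beside 21.6% of all genes at that threshold. CM differs from BORIS KO in many genes, and the replicate numbers of these libraries are shared with WT and CTCF HET. The pairing of BORIS KO with CM by number is uncertain. BORIS KO replicate 2 deviated with CM replicate 3 (correlation 0.495) more than with CM replicate 2 (0.175). The same-numbered pairs 1 and 3 stood at 0.469 and 0.452.

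In round spermatids the 42 genes did not follow the allele on the BORIS KO background as they did in whole testis. Of 34 tested with the block in CM against BORIS KO, 15 had the same direction as in CTCF HET whole testis. At an adjusted p under 0.05, 6 passed in the same direction (Rltpr, Dhrs4, Prss41, Loxl1, Col2a1 and Dpep3) and 2 in the opposite one, beside 16.4% of 15602 genes. Without the block, 18 of the 34 had the same direction, and 7 passed in that direction (Rltpr, Dhrs4, Gsdma, Loxl1, 4933412E12Rik, Col2a1 and Dpep3) and 4 in the opposite one, beside 23.2% of all genes. The pairing by number was checked in whole testis and not in round spermatids.

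A group of 8 genes passed at an adjusted p under 0.05 in the same direction in CTCF HET whole testis with the block, in CTCF HET round spermatids and in CM against BORIS KO whole testis: Rltpr, which was higher, and Dhrs4, Prss41, Gsdma, 1700016P04Rik, Morc1, Pcdha2 and Col2a1, which were lower. Dhrs4 was at 22.1 to 30.0 CPM in the BORIS KO libraries and 6.32 to 14.4 CPM in CM. Morc1 was at 5.01 to 5.24 CPM in BORIS KO and 1.43 to 2.75 CPM in CM, and Prss41 at 3.46 to 4.90 and 0.671 to 1.18 CPM. For each of these 3 genes the libraries with 1 working Ctcf allele were below the libraries with 2 in both pairs of whole testis genotypes. The choice of the 8 by passing in these same libraries favours such a separation, which is not independent evidence. Between CTCF HET and WT, 7.90% of all genes tested had groups without overlap. How many of all genes pass in these 3 comparisons is not given here. Not all of the 8 passed in round spermatids of CM against BORIS KO. There Rltpr, Dhrs4, Prss41 and Col2a1 passed in the same direction with the block and the other genes did not pass. Morc1 had a log2 fold change of 0.16 there with the block and 0.23 without it.

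**Figure D4:**
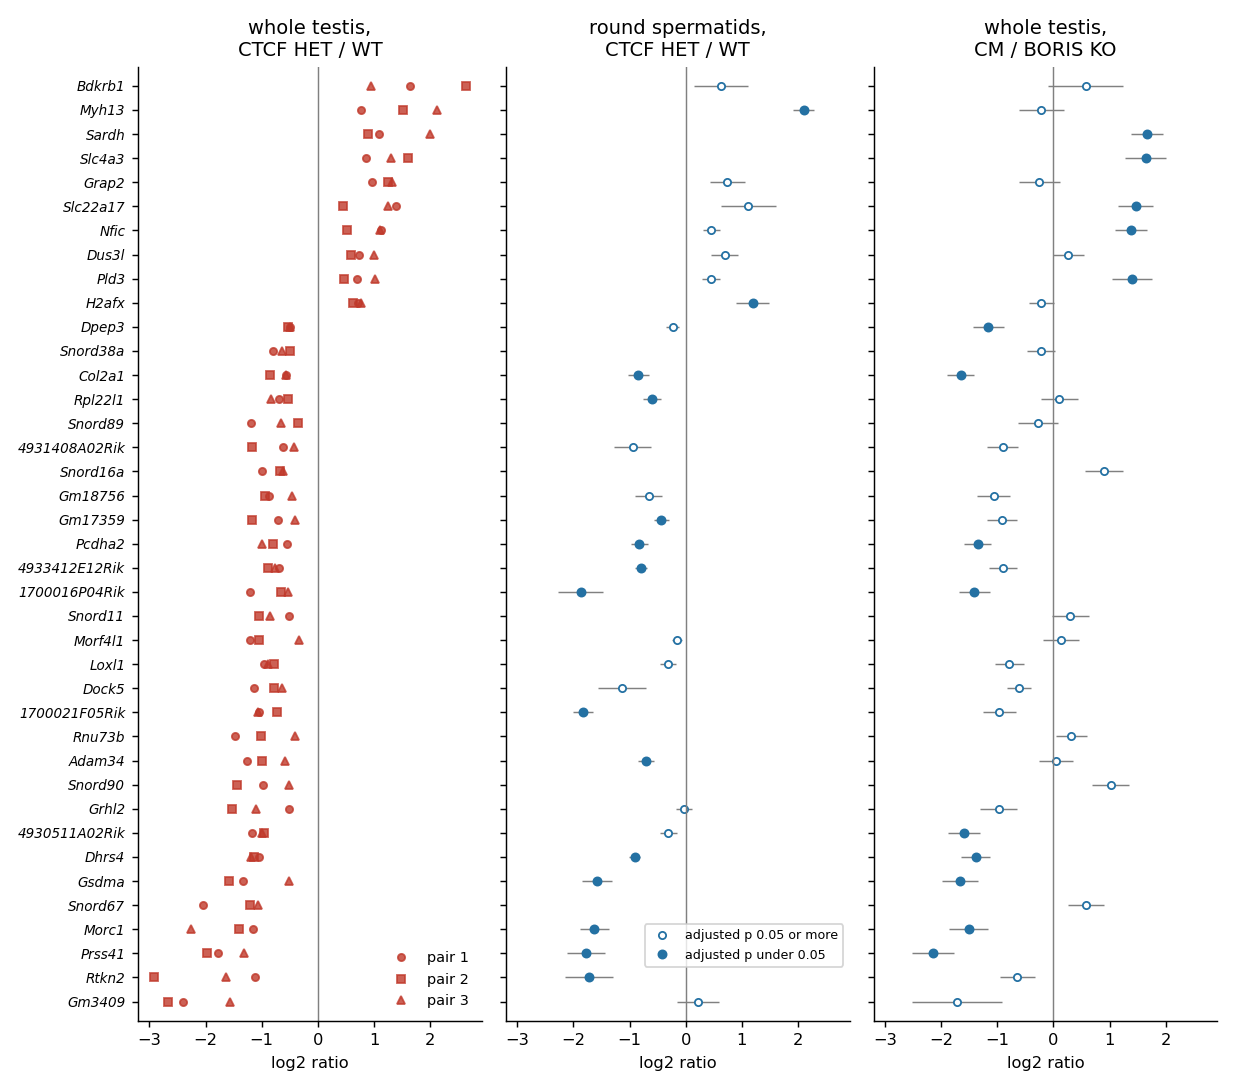
39 of the genes other than Rltpr with an adjusted p under 0.05 in the paired comparison of whole testis. The horizontal axes are log2 ratios: CTCF HET over WT in each of 3 replicate pairs (left), the fitted value in round spermatids (middle) and CM over BORIS KO in whole testis (right), where bars are SE and filled points have an adjusted p under 0.05. In the middle panel 15 of 30 genes are filled and on the side of the left panel.

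The 42 genes were described further by what lay at their starts. A WT CTCF peak within 1 kb of a start was found for 17 of the 37 genes with an annotated start (45.9%), against 34.2% of 15461 annotated genes tested. A WT BORIS peak was found for 8 (21.6%, against 18.2%) and a CTCF peak in CM for 10 (27.0%, against 11.96%). Among the genes named above, the starts of Dhrs4, Prss41, Morc1, Sardh, H2afx and Dpep3 had a WT CTCF peak, and those of Gsdma, Col2a1, Myh13 and Gm3409 did not.

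Genes were also grouped by the WT peaks at their start. Of 15461 annotated genes tested, 2211 had both CTCF and BORIS peaks in WT within 1 kb of a start, 3083 had CTCF without BORIS, 597 BORIS without CTCF, and 9570 neither. The median log2 fold changes were 0.03, 0.04, -0.03 and 0.00. In the 3 replicate pairs the class medians ran from 0.02 to 0.03, from 0.02 to 0.04, from -0.08 to 0.00 and from -0.03 to 0.01. The differences between classes were not tested. Genes with both peaks had a median log2 CPM of 4.05 and a median SE of 0.253, against 3.44 and 0.276 for genes with neither. The part of level and precision in the shares below was not tested. At an unadjusted p under 0.05, 1.90% of genes with both peaks were higher and 1.45% lower, against 1.38% and 1.02% of genes with neither. Where the CTCF peak was also called in CM (1785 genes), 2.07% were higher and 1.79% lower, and where it was not (3509 genes), 1.68% and 0.94%. With the replicate block, 6.78% of genes with both peaks were higher and 6.33% lower, 7.01% and 5.12% of those with CTCF without BORIS, 4.52% and 8.04% of those with BORIS without CTCF, and 4.96% and 7.16% of those with neither. Thus more genes were higher than lower in the classes with a CTCF peak, and fewer in the class with neither, whereas in the first fit more were higher than lower in that class too.

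Clustered protocadherins, the cell adhesion genes whose alternative promoters are chosen with CTCF and cohesin, split by cluster in whole testis. Of 13 alpha genes tested, 11 were lower in CTCF HET, 5 of them at an unadjusted p under 0.05 (1.16% of all genes tested were lower at this threshold), and the median log2 fold change was -0.63. With the block, 8 of the 42 protocadherins tested were lower and 2 higher, beside 6.78% and 5.53% of all genes. Of 8 beta genes 3 were lower, and of 21 gamma genes 10 were lower, with medians of 0.15 and 0.01. The summed level of the 14 alpha genes in the table was 89.7, 81.2 and 79.7 CPM in WT and 71.9, 43.7 and 46.6 CPM in CTCF HET, without overlap. The sums of the beta and of the gamma genes overlapped between genotypes. The split into clusters was made after the values were seen, and no test was made of it.

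Single alpha genes showed the decrease at different levels. Pcdha2, the most highly counted, was at 43.1, 36.2 and 40.0 CPM in WT and 29.4, 20.7 and 19.9 CPM in CTCF HET (log2 -0.78 ± 0.15, adjusted p = 0.0277 with the block). Pcdha9 was at 2.94, 2.98 and 3.29 CPM in WT and 2.15, 0.733 and 0.915 CPM in CTCF HET (log2 -1.23 ± 0.40, unadjusted p of 0.0133 by edgeR). Pcdha11 was at 1.61, 1.33 and 1.60 CPM in WT and 0.538, 0.855 and 0.406 CPM in CTCF HET (log2 -1.30 ± 0.37). In round spermatids all 8 alpha genes counted by cluster were lower in CTCF HET, Pcdha2 and Pcdha3 at an adjusted p under 0.05. The decrease was not particular to the alpha genes there. Of 19 gamma genes counted 14 were lower (median log2 fold change -0.85), and of 4 beta genes 3 (median -0.12), 0 of these at that threshold. These counts by cluster leave out some protocadherins tested in round spermatids. Over all 35 tested there, 4 were lower and 0 higher at that threshold, beside 12.8% and 9.51% of all genes. In CM against BORIS KO in whole testis all 13 alpha genes were lower, 1 at that threshold. The alpha transcripts share their last exons, and how reads of shared exons were counted is not given in the sources used here, so that the alpha genes are not independent of each other.

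Among partners of CTCF on chromatin, 14 of 16 tested genes for cohesin subunits, loaders and release factors had a log2 fold change below 0. None of the 16 passed an unadjusted p of 0.05 in the first fit, the median log2 fold change was -0.20, and all 16 intervals lay within a 2-fold change. Wapal, which releases cohesin from DNA, was lowest at -0.42, with 231, 263 and 254 CPM in WT and 133, 254 and 172 CPM in CTCF HET. Stag3, the meiotic cohesin subunit, had the most counts. The direction differed between the purified cells. At an adjusted p under 0.05, 6 of 18 were lower and 1 higher in round spermatids (median -0.22), beside 12.8% and 9.51% of all genes. In spermatocytes 0 of 16 were lower and 5 higher (median 0.26), beside 8.76% and 6.77%. With the block in whole testis, 5 of the 16 were lower at an unadjusted p under 0.05 (Stag1, Nipbl, Wapal, Pds5b and Smc1b) and 0 higher, beside 6.78% and 5.53% of all genes. Of 12 genes for other proteins known to bind or act beside CTCF, 0 passed in the first fit, with log2 fold changes from -0.34 (Top2b) to 0.33 (Maz), and with the block Maz was higher and Ybx1 and Top2b were lower at that threshold.

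Imprinted genes and Hox genes lie at loci where CTCF sites are well described. Of 27 imprinted genes tested, 2 were higher at an unadjusted p under 0.05 and 0 lower, with a median log2 fold change of 0.05 and single values from -0.56 (Rasgrf1) to 1.13. The 95% interval lay within a 2-fold change for 18 of the 27. Meg3, a maternally expressed noncoding RNA, was at 4.67, 5.37 and 6.14 CPM in WT and 12.2, 9.90 and 5.59 CPM in CTCF HET, so that CTCF HET replicate 3 was within the range of WT and the other CTCF HET libraries were above it. Peg12 was at 0.311 to 0.712 CPM in WT and 0.711 to 1.36 CPM in CTCF HET. Of 12 Hox genes tested, 1 passed: Hoxd3, at 0.538 to 0.979 CPM in WT and 1.08 to 1.89 CPM in CTCF HET. Log2 fold changes of the 12 ran from -1.03 (Hoxd10) to 1.13 (Hoxb2), and 3 intervals lay within a 2-fold change. With the block, Mirg passed too among the imprinted genes, and Hoxd3 was again the 1 Hox gene past the threshold. The other 27 of 39 Hox genes were below the filter on low counts.

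Few markers of germ cells passed in the first fit. None of 9 synaptonemal complex and axis genes, 16 recombination genes, 22 round spermatid genes, 20 elongating spermatid genes and 10 differentiating spermatogonia genes passed an unadjusted p of 0.05, and their medians ran from -0.11 to 0.06. Of 17 genes of pachytene spermatocytes 1 passed: Piwil1, the PIWI protein that loads pachytene piRNAs, at 361, 314 and 316 CPM in WT and 438, 455 and 395 CPM in CTCF HET, without overlap (log2 0.38 ± 0.15). It was also higher in round spermatids (log2 0.59, adjusted p = 0.00675). Of 14 genes of undifferentiated spermatogonia 1 passed, Taf4b, a gonadal subunit of the TFIID complex, at 6.45, 9.28 and 7.30 CPM in WT and 5.83, 4.40 and 4.27 CPM in CTCF HET (log2 -0.67 ± 0.25). With the block, the genes lower at an unadjusted p under 0.05 were Sycp1 and Syce2 of the 9 synaptonemal genes, Tex15 of the 16 recombination genes, Pgk2 and Adam3 of the 17 pachytene genes, and Taf4b. So were Fhl5, Tbpl1 and Txndc8 of the 22 round spermatid genes and Smcp, Akap4 and Capza3 of the 20 elongating spermatid genes, beside 6.78% of all genes. Piwil1 and Sohlh1, a factor of differentiating spermatogonia, were higher, beside 5.53% of all genes. The summed level of the differentiating spermatogonia list was 653 to 688 CPM in WT and 711 to 733 CPM in CTCF HET. Dmrtb1 had the most counts in that list. Of its 10 genes 6 were higher and 4 lower, with medians of 0.07, 0.19 and -0.18 in replicate pairs 1 to 3. The sums of the other germ cell lists overlapped between genotypes.

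Somatic cells of the testis contributed low and variable counts. Of 16 Sertoli cell genes 1 was higher, the transferrin gene Trf (23.1, 11.6 and 15.1 CPM in WT; 22.8, 24.9 and 30.6 CPM in CTCF HET), and 0 of 11 Leydig cell genes and 0 of 11 peritubular genes passed. With the block, 4 of the 16 Sertoli cell genes (Amh, Clu, Inha and Trf), 2 of the 11 Leydig cell genes (Cyp11a1 and Cyp17a1) and 1 peritubular gene (Col1a1) were higher and 0 lower, beside 5.53% and 6.78% of all genes. Insl3, a hormone of Leydig cells, had the highest log2 fold change among Leydig genes, 1.83 ± 1.49, owing to 32.5 CPM in CTCF HET replicate 3 against 0.579 and 2.51 CPM in the other CTCF HET libraries. Of 12 macrophage genes 1 was higher, C1qa (5.69 to 8.15 CPM in WT; 8.68 to 16.2 CPM in CTCF HET), and with the block 6 were higher and 0 lower, beside the same shares of all genes. Macrophage genes stood highest in replicate pair 3, with a median log2 ratio of 1.08 against 0.06 and 0.21 in the other pairs. Of 7 endothelial genes 1 was lower, Flt1, a VEGF receptor, at 4.64 to 5.40 CPM in WT and 2.38 to 3.86 CPM in CTCF HET. It was lower with the block as well, as was Slc4a1 of the red blood cell genes. The summed levels of the Sertoli, Leydig, peritubular, macrophage, endothelial, red blood cell and epididymis lists all overlapped between genotypes, and 1 of the 10 epididymis genes and 2 of the 6 red blood cell genes passed the filter on low counts. The part of these cells in the results above was not tested.

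Other lists chosen for this tissue had few members past the threshold. None of 14 BCL2 family genes, 11 immediate early and heat shock genes and 8 DNA methylation genes passed an unadjusted p of 0.05 in the first fit. With the block, Junb of the immediate early genes and Tet2 of the DNA methylation genes were higher, and no BCL2 family gene passed. Of 13 p53 targets 1 was higher, Gadd45a, a growth arrest gene (0.226 to 0.445 CPM in WT; 0.813 to 1.24 CPM in CTCF HET; log2 1.57 ± 0.44). Of 80 ribosomal protein genes 1 was lower, Rpl22l1, a paralog of Rpl22 (41.5, 46.3 and 35.1 CPM in WT; 25.7, 32.1 and 19.7 CPM in CTCF HET), and 67 had intervals within a 2-fold change. With the block, 10 of the 80 were lower and 1 was higher, beside 6.78% and 5.53% of all genes. A list of 19 tested genes drawn from the study, which does not hold all that it names, had Ctcf and Rltpr past the threshold, and with the block 6 lower and 2 higher. Genes of the study were chosen on the same series, so that this count is not independent evidence. In this list Prkar2a, a regulatory subunit of protein kinase A, was at 657, 547 and 559 CPM in WT and 430.3, 490.1 and 463 CPM in CTCF HET (log2 -0.34 ± 0.16, unadjusted p of 0.0588).

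**Figure D5:**
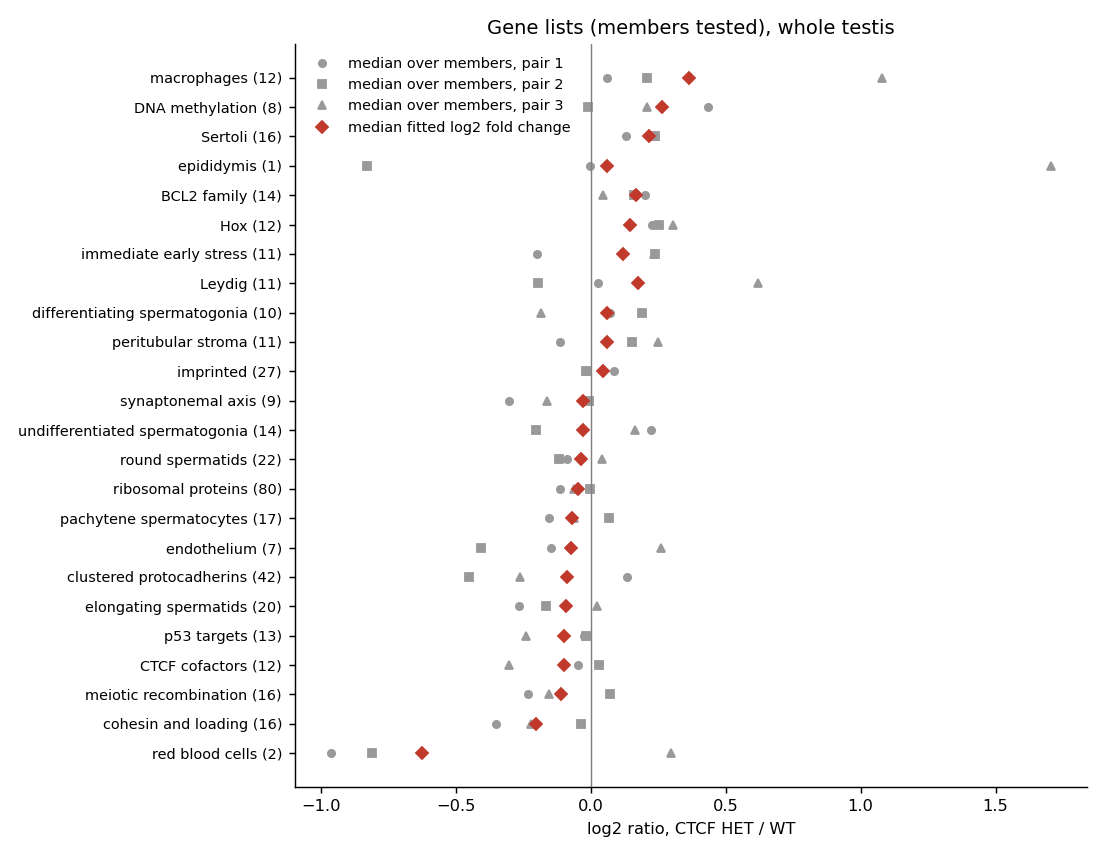
Median log2 ratio of CTCF HET over WT (horizontal axis) over the tested members of 24 gene lists (vertical axis, number tested in parentheses). Diamonds are medians of fitted log2 fold changes and grey symbols are medians in each of 3 replicate pairs, which for most lists lie on both sides of 0.

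The genes with the smallest unadjusted p in the first fit that have not been named yet were Gm4567, Cntnap5c and 4930511A02Rik, lower, and Grap2, Pkn3, 2510049J12Rik, Nfic, Smarcd3, Mmp24 and Trpm2, higher. Grap2, an adaptor protein of immune cell signalling, was at 3.08, 2.78 and 2.67 CPM in WT and 6.08, 6.78 and 6.81 CPM in CTCF HET. Pkn3, a protein kinase, was at 1.99 to 3.76 CPM in WT and 6.10 to 12.5 CPM in CTCF HET. Smarcd3, a subunit of SWI/SNF chromatin remodelling complexes, was at 2.32 to 3.23 CPM in WT and 4.64 to 6.24 CPM in CTCF HET. The adjusted p of each of these genes was 1.00 in the fit without the block. All had groups without overlap, which the choice by smallest p favours, beside 7.90% of all genes tested.

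Small nucleolar RNAs, which guide the modification of ribosomal and other RNAs and mostly lie in introns of host genes, made up 7 of the 42 genes of the paired comparison, all lower. Snord16a was at 427, 362 and 279 CPM in WT and 213, 228 and 182 CPM in CTCF HET. Snord11 was at 362, 316 and 282 CPM in WT and 253, 152 and 156 CPM in CTCF HET, and neither gene's groups overlapped. At an unadjusted p under 0.05, 12 of 93 tested small nucleolar RNAs were lower and 1 was higher in the first fit, beside 1.16% and 1.47% of all genes. With the block 35 were lower and 3 higher, beside 6.78% and 5.53% of all genes. The list was chosen after these values were seen. In CM against BORIS KO 2 of the 7 had the same direction and 5 the opposite one, whereas 29 of the other 35 genes of the paired comparison had the same direction. Reads of the introns that hold these RNAs may be counted with them.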

How the data were processed

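RNA was measured in whole testis (total RNA depleted of ribosomal RNA, sequenced on an Ion Proton), and in sorted round spermatids and spermatocytes (poly(A) RNA). The authors aligned whole testis reads with TopHat2 and then Bowtie2, and reads of the sorted cells with STAR, to the mouse build mm9, and deposited raw counts per gene symbol; the counting tool and its use of strand are not given in the sources used here. Of 23284 symbols in the whole testis table, 25 read as dates, as a spreadsheet program writes them, and stayed in the table unchanged. The deposited CTCF and BORIS peak lists give a peak height, a signal that is not comparable between lists, and the deposited Pol2 and H3K4me3 lists give a MACS score. The submitters' processing notes also name Bowtie, Cufflinks 2.0.0 and DESeq2.

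Groups were taken from the sample labels. Counts were fitted with the quasi-likelihood test of edgeR 4.0.16 (R 4.3.3, limma 3.58.1) after filterByExpr with a count minimum of 10 and TMM scaling, and p-values were adjusted by Benjamini-Hochberg over all 16097 genes tested. A gene was called at an adjusted p under 0.001 and a fold change over 2. CPM are counts scaled to a TMM-adjusted library total of 1000000, and are not scaled by gene length, so that levels were compared only between libraries. The replicate numbers come from the labels. The 3 pairs of WT and CTCF HET libraries with the same number all deviated together (correlations 0.262 to 0.700). So did 18 of 18 pairs over the 4 genotypes (0.175 to 0.700), so fits with the number as a block are given as well. Libraries of different numbers ran from -0.640 to 0.495 over the 4 genotypes, so that the 2 ranges overlapped. A shared number was not stated to mark a shared day or litter. CM is the combined mutant, named DKO in the labels. Gene starts, peaks and sequences were matched on GENCODE annotation of mm9, which named 15461 of the tested genes. Scripts were tested on simulated data.

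Named genes were Ctcf and Ctcfl, genes called by either fit, the 10 with the smallest unadjusted p in each direction, a list of genes drawn from the study, genes within 500 kb of Ctcf and, in each list, members with an unadjusted p under 0.05, the most counts, or the highest or lowest log2 fold change. Genes passing with the block, single alpha protocadherins and small nucleolar RNAs were named after their values were seen. Genotypes, lists and members were chosen with earlier results of these data known. DESeq2 1.42.0, other scaling, no filter, all 4 genotypes in 1 fit, the block and leaving out each library were tried as alternatives. The smallest p of an exact permutation test on these 6 libraries is 0.1, and no such test is reported. Counts of single libraries limit precision as given in the report, and intervals cover the spread between these libraries. A few genes counted in the totals are not reported here by name.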

Additional observations from a re-analysis of the deposited data

Results flagged for a closer look

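For 7 of the 42 genes of the paired comparison, every CTCF HET library moved one way against WT in whole testis and the opposite way in spermatocytes. None of these differences was tested, and the spermatocyte libraries of CTCF HET had counts for fewer genes than those of WT. H2afx, higher in whole testis, had a log2 fold change of -1.43 in spermatocytes, with 18.3 and 21.1 CPM in WT and 4.83 to 9.53 CPM in CTCF HET. Dus3l, a dihydrouridine synthase, had a log2 fold change of -1.68 there, with 12.9 and 15.1 CPM in WT and 3.16 to 5.30 CPM in CTCF HET.

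Adam34, lower in whole testis, had a log2 fold change of 2.39 in spermatocytes, and 4930511A02Rik and Rpl22l1, also lower in whole testis, of 0.58 and 0.43. Bdkrb1, a bradykinin receptor, and Slc4a3 were higher in whole testis and had no count in any CTCF HET spermatocyte library. Against the floor of 3 counts in the shallowest of those libraries, Bdkrb1 was at least 9.30-fold lower and Slc4a3 at least 4.01-fold lower than in WT spermatocytes.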

How the results depend on the processing

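Across RLE scaling, DESeq2, no filter on low counts and all 4 genotypes in 1 fit, 1 gene was called, Rltpr. The count of called genes was 2 with the replicate block and also 2 with the block and no fold threshold, 42 with the block at an adjusted p under 0.05 at any fold, and 3 with DESeq2 at that threshold. It was 0 to 1 with each library left out, and 1 to 43 with the block when each pair was left out, from 3 without pair 1 and 1 without pair 2 to 43 without pair 3. The cause was not tested. Genes at an unadjusted p under 0.05 numbered 1982 with the block and 244 (without WT replicate 2) to 648 (without CTCF HET replicate 2) with a library left out. Under an alternative, mostly the block, 43 values of single named genes passed an adjusted threshold that they missed in the first fit.

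The median log2 fold change of Hox genes was 0.52 with no filter and 0.28 with all 4 genotypes. With each library left out, medians ranged from -0.042 to 0.068 for imprinted genes, 0.010 to 0.33 for Hox genes and -0.29 to 0.081 for synaptonemal complex genes. They ranged from -0.30 to -0.035 for recombination genes, -0.15 to 0.11 for pachytene genes and -0.17 to 0.051 for round spermatid genes. The ranges were -0.30 to -0.051 for elongating spermatid genes and 0.070 to 0.38 for Sertoli genes. For the BCL2 family they were 0.049 to 0.32, and for ribosomal proteins -0.14 to 0.030. The epididymis list ran from -1.82 to -0.38, whereas in the first fit its 1 tested gene, Lcn2, was at 0.06. The filter on low counts was applied in each fit, so that the members tested can differ. Within 2 kb of a start, 16.3% of genes had CTCF and BORIS peaks, 22.6% CTCF without BORIS, 3.75% BORIS without CTCF and 57.4% neither, with the CTCF peak also in CM for 16.0% and not in CM for 22.9%.

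Among single genes, none of them called, the sign turned with a library left out for Ankrd52 (-0.092 to 0.36), Crisp2 (-0.49 to 0.084), Dbil5 (-0.34 to 0.24, with 0.085 and 0.12 between), Fert2 (-0.25 to 0.0038), Gal3st1 (-0.16 to 0.37, with -0.072, -0.020 and -0.024 between), Kit (-0.18 to 0.63), Prss50 (-0.34 to 0.0093), Syce2 (-0.68 to 0.081), Tcp11 (-0.13 to 0.014) and Tssk3 (-0.11 to 0.25). Low depth limits genes under 10 CPM, where 46.0% had an interval within a 2-fold change.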
